A study of Mus musculus with 45 samples.

Results

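The 10 genes described here are Pecam1, Cdh5, Kdr, Flt1, Tek, Tie1, Car4, Ednrb, Vwf and Aplnr, which mark the cells that line blood vessels. They were set by name and are 10 of the 55367 gene symbols in the count table. Their levels were followed in 45 libraries of 4 tissues. All 10 genes passed the filter on low counts in each tissue, and summed over the libraries they held between 2735 counts (Aplnr) and 114005 counts (Kdr).

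The study asked whether gene expression in an implanted scaffold, set beside that of lung, spleen and primary tumor, separates mammary cancers of differing metastatic potential. Female BALB/c mice carried porous polycaprolactone scaffolds, a synthetic tissue niche placed under the skin of the upper back of young adult animals before inoculation, and this held for the healthy controls too. Tumor-bearing mice then received 2000000 67NR (nonmetastatic), 4T07 (micro-metastatic) or 4T1 (metastatic) cells in PBS in the right mammary fat pad, and tissues were taken at day 14. The 3 lines come from a single spontaneous mammary tumor, so each condition stands for 1 cell line rather than for a class of tumors. Scaffolds, lungs and spleens of control, 67NR, 4T07 and 4T1 mice and primary tumors of the 3 lines made 15 groups of 3 libraries each. The labels mark each library as a separate sample but do not tie tissues to animals, so p-values measure the spread between these samples.

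Endothelial cells hold together through junction proteins and read their surroundings through a small set of receptors. VEGF family ligands act through Kdr (VEGFR2), which carries most of the growth signal, and through Flt1 (VEGFR1), which binds VEGF tightly and limits that signal. Angiopoietins act through Tek (Tie2) together with the related receptor Tie1, and keep vessels quiescent or open them to remodeling. In the lung, the gas-exchange capillaries hold wide, thin cells known as aerocytes, which are rich in Car4 and Ednrb, and general capillary cells, which express Aplnr, the apelin receptor. Vwf, the clotting factor stored in endothelial granules, is richest in larger vessels, and is also made by megakaryocytes. Pecam1 is likewise carried by platelets and several leukocytes.

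RefSeq (build GRCm38.p6) gave a promoter for 6 of the 10 genes, and the 250 bases before the start site of 4 of them are shown, 5′ to 3′ on the strand of the gene. Kdr and Flt1 are shown because these VEGF receptors took different levels in the tumors, and Tie1 and Car4 because they were the members that rose in the scaffolds of 4T07-bearing mice. Capitals mark matches, on either strand, to motifs of the ETS, GATA, SOX and KLF factor families and to the TATA box, which are spelled out after the sequences.
Kdr: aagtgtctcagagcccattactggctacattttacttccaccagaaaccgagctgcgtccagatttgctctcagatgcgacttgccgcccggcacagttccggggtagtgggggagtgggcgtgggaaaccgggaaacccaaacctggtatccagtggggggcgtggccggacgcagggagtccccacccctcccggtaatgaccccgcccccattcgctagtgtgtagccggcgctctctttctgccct
Flt1: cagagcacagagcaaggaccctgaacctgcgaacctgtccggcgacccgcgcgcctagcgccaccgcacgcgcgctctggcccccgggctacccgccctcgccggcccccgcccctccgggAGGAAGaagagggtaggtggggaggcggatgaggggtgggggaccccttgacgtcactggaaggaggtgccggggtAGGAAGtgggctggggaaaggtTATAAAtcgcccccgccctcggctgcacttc
Tie1: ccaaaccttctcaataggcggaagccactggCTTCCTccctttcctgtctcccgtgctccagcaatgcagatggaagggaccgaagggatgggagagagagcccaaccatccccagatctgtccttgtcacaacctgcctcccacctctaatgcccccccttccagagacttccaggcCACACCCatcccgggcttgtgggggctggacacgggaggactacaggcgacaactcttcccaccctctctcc
Car4: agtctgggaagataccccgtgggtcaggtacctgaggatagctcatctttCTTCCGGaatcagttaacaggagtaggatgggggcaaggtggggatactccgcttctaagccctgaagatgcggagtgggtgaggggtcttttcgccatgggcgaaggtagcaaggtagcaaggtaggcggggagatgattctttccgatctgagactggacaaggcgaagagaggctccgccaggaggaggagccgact
The Kdr stretch (chr5:75978456-75978705, minus strand) held no match. The Flt1 stretch (chr5:147726012-147726261, minus strand) held AGGAAG starting at -129 and at -53 and TATAAA at -31, counted from the start site. The Tie1 stretch (chr4:118489850-118490099, minus strand) held the reverse complement of AGGAAG at -219 and CACACCC at -72. The Car4 stretch (chr11:84957504-84957753, plus strand) held the reverse complement of CCGGAAG at -200. The ETS motif CCGGAAG was in 1 of the 6 promoters, beside 6.91% of 32851 mouse promoters of the same length. The shorter ETS motif AGGAAG was in 2 of the 6, beside 29.5% of all promoters. The GATA motif AGATAAG was in 0 of the 6, beside 2.74%, and the SOX motif AACAATG was in 0, beside 3.29%. The KLF motif CACACCC was in 1, beside 6.93%, and the TATA box, searched as TATAAA, was in 1, beside 12.4%. No motif's letters contain another's. These matches describe the letters of the windows and say nothing of which factors bind there.

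Library totals ran from 3491888 to 8175380 counts, so that 3 counts were worth 0.367 to 0.859 CPM, where CPM is the gene's count per 1000000 counts in its library. The libraries labelled 4T07 lung departed in part from their label. The lung epithelial surfactant gene Sftpc stood at 2855, 1798 and 3620 CPM in them, against 7939 to 13286 CPM in the other 9 lungs. Tlx1, a transcription factor of the spleen that was singled out after its values were seen, stood at 14.6, 13.8 and 11.1 CPM, against 0.32 to 1.72 CPM in the other lungs and 11.0 to 55.8 CPM in the spleens. The pancreatic lipase Pnlip stood at 83.4, 90.8 and 67.7 CPM, against at most 2.90 CPM in the other lungs. Over whole lists, the summed level of 9 lung epithelial genes was 6513 to 15933 CPM in these libraries against 31320 to 40798 CPM in the other lungs, that of 9 erythroid genes 61547 to 77482 against 15247 to 30104 CPM, that of 10 platelet genes 1104 to 1623 against 78.0 to 192 CPM, and that of 7 exocrine pancreas genes 352 to 465 against 7.96 to 30.6 CPM. Smaller traces of the same genes were in replicate 1 of the 4T07 scaffolds (Tlx1 4.65 and Pnlip 20.9 CPM) and replicate 1 of the 4T07 tumors (Tlx1 4.42 and Pnlip 8.63 CPM). Each result below that rests on the libraries labelled 4T07 lung is therefore set beside these values, and their part in the result was not tested.

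**Figure D1:**
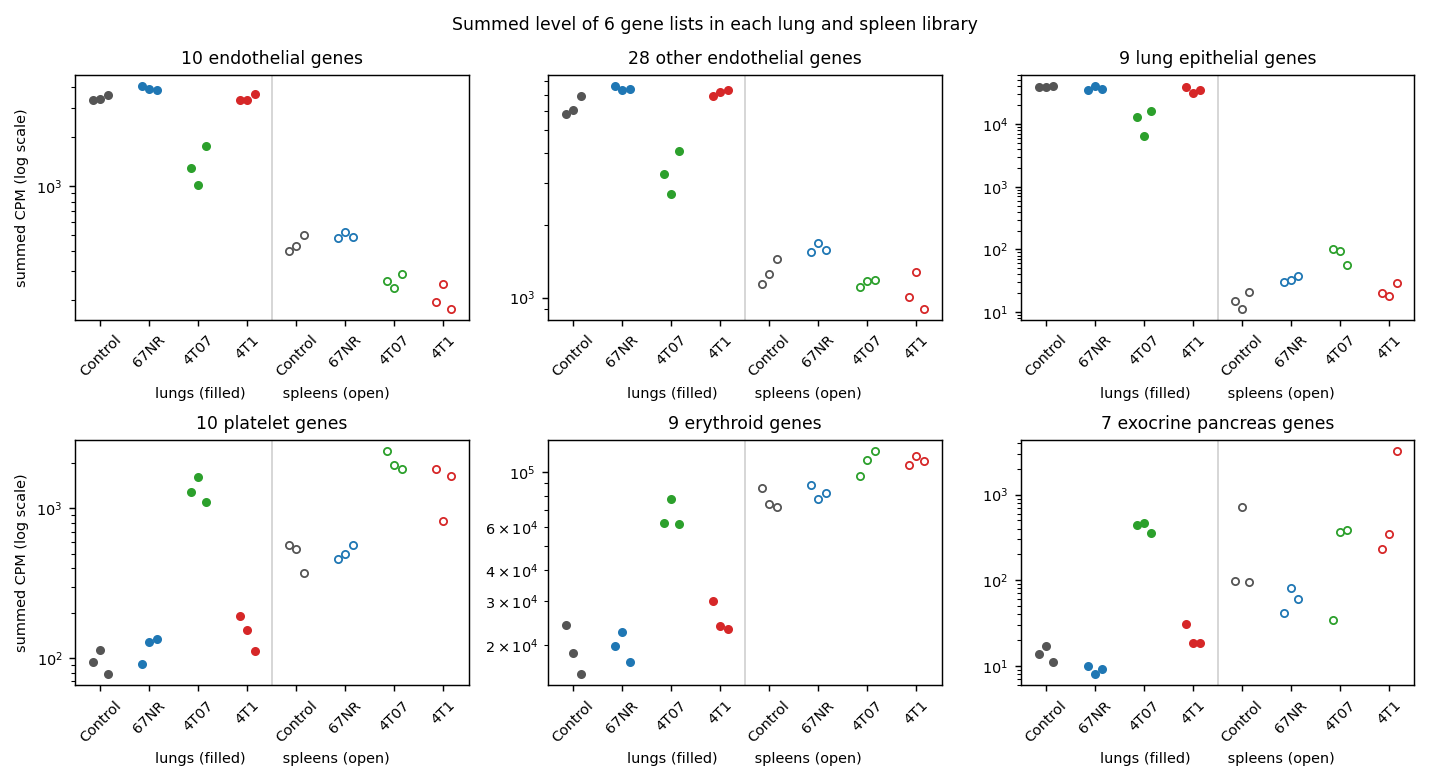
Summed level (CPM, log scale) of 6 gene lists in each of the 12 lung libraries (filled points) and 12 spleen libraries (open points), by group on the horizontal axis. The 3 libraries labelled 4T07 lung lie below the other lungs for the 10 endothelial, 28 other endothelial and 9 lung epithelial genes, and above them for platelet, erythroid and exocrine pancreas genes.

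All 10 genes were highest in the lung. In healthy control mice the lung exceeded the scaffold by 2.53-fold (Ednrb) to 187-fold (Car4), and every gene passed the test in both the lung against scaffold comparison and the lung against spleen comparison. A gene was called between tissues or between tumors when its adjusted p (edgeR's quasi-likelihood test, Benjamini-Hochberg over all genes tested) was under 0.05 and its fold change over 2. Of all 27656 genes tested over the 45 libraries, 13% were called higher in control lung than in control scaffold, and 15.1% higher than in control spleen.

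The junction genes set the scale of the difference. Pecam1, an adhesion molecule at the contacts between endothelial cells, stood at 333, 350 and 340 CPM in the control lungs, 93.1, 76.8 and 78.7 CPM in the control scaffolds and 123, 126 and 116 CPM in the control spleens. Cdh5, the cadherin of endothelial junctions, stood at 425, 437 and 415 CPM in the control lungs, 29.0, 46.5 and 38.7 CPM in the scaffolds and 19.8, 20.8 and 20.9 CPM in the spleens. Neither gene's lungs overlapped with another tissue, and the log2 fold change of lung over spleen was 1.44 (SE 0.18) for Pecam1 and 4.33 (SE 0.26) for Cdh5. Pecam1 is held by platelets and leukocytes as well, and the platelet list summed to 370 to 572 CPM in the control spleens against 78.0 to 113 CPM in the control lungs.

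The receptors and capillary genes spread over a wider range. Tek in control lung was 18.1-fold its level in scaffold and 14.2-fold its level in spleen, Kdr 13.1-fold and 7.31-fold, Flt1 9.03-fold and 8.87-fold, and Tie1 8.83-fold and 5.30-fold. Car4, the membrane carbonic anhydrase of lung capillaries, stood at 204, 194 and 243 CPM in the control lungs but at 1.68, 0.79 and 0.94 CPM in the control scaffolds. In the control spleens Car4 had a single count among 3 libraries against 3742 counts in the lungs, a ratio of 3026 with a counting interval of 543 to 119571 (95%, counting error only). Ednrb, the endothelin B receptor, was 30.0-fold higher in lung than in spleen but only 2.53-fold higher than in scaffold, and without control scaffold replicate 2 its log2 fold change over scaffold fell from 1.08 to 0.95 and the call was lost. Vwf in lung was 4.63-fold its level in scaffold and Aplnr 3.48-fold.

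Between control scaffold and control spleen, 4 of the 10 genes were called, all higher in the scaffold (12.8% of all genes tested were called higher). Ednrb was at 53.1, 43.9 and 61.5 CPM in the scaffolds against 6.21, 3.23 and 3.88 CPM in the spleens, a log2 fold change of 3.75 (SE 0.26). Cdh5 (log2 fold change 1.10, SE 0.25), Aplnr (1.30, SE 0.41) and Car4 (3.76, SE 1.00) were the others, and Car4 rested on the single count in spleen. The call for Cdh5 was lost without control scaffold replicate 2 (0.94), and that for Aplnr without control spleen replicate 3 (1.04). When libraries were scaled by their totals alone, 3 of the 10 genes were called. Kdr was at 95.9, 136 and 111 CPM in the scaffolds and 155, 198 and 262 CPM in the spleens, a log2 fold change of -0.63 (SE 0.21, adjusted p = 0.0150) that did not reach the fold required. Pigment and glial cells also use Ednrb, and of 8 genes of such cells 3 were called higher and 2 lower in the scaffold, whose part in the result was not tested.

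Ordered by their mean over the 15 groups, the lungs of control, 67NR and 4T1 mice took the 3 highest places for each gene. The highest mean was in 67NR lungs for 9 genes and in 4T1 lungs for Tek (290 CPM, beside 289 CPM in 67NR lungs). The libraries labelled 4T07 lung took place 4 for 8 genes, place 6 for Aplnr and place 10 for Ednrb. Below the lungs the order depended on the gene. Tumors came next for Flt1 (4T1, 148 CPM) and Car4 (4T07, 60.0 CPM), control spleens for Pecam1 (122 CPM), 67NR spleens for Kdr (261 CPM), 4T07 spleens for Vwf (33.1 CPM), and scaffolds for Cdh5 (67NR, 51.4 CPM), Tek (67NR, 22.8 CPM) and Tie1 (4T07, 10.4 CPM). Of the 14 pairs of neighbors in each order, between 9 (Pecam1, Cdh5, Flt1 and Tie1) and 14 (Aplnr) overlapped in their replicates, so most neighbors did not differ beyond their spread.

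**Figure D2:**
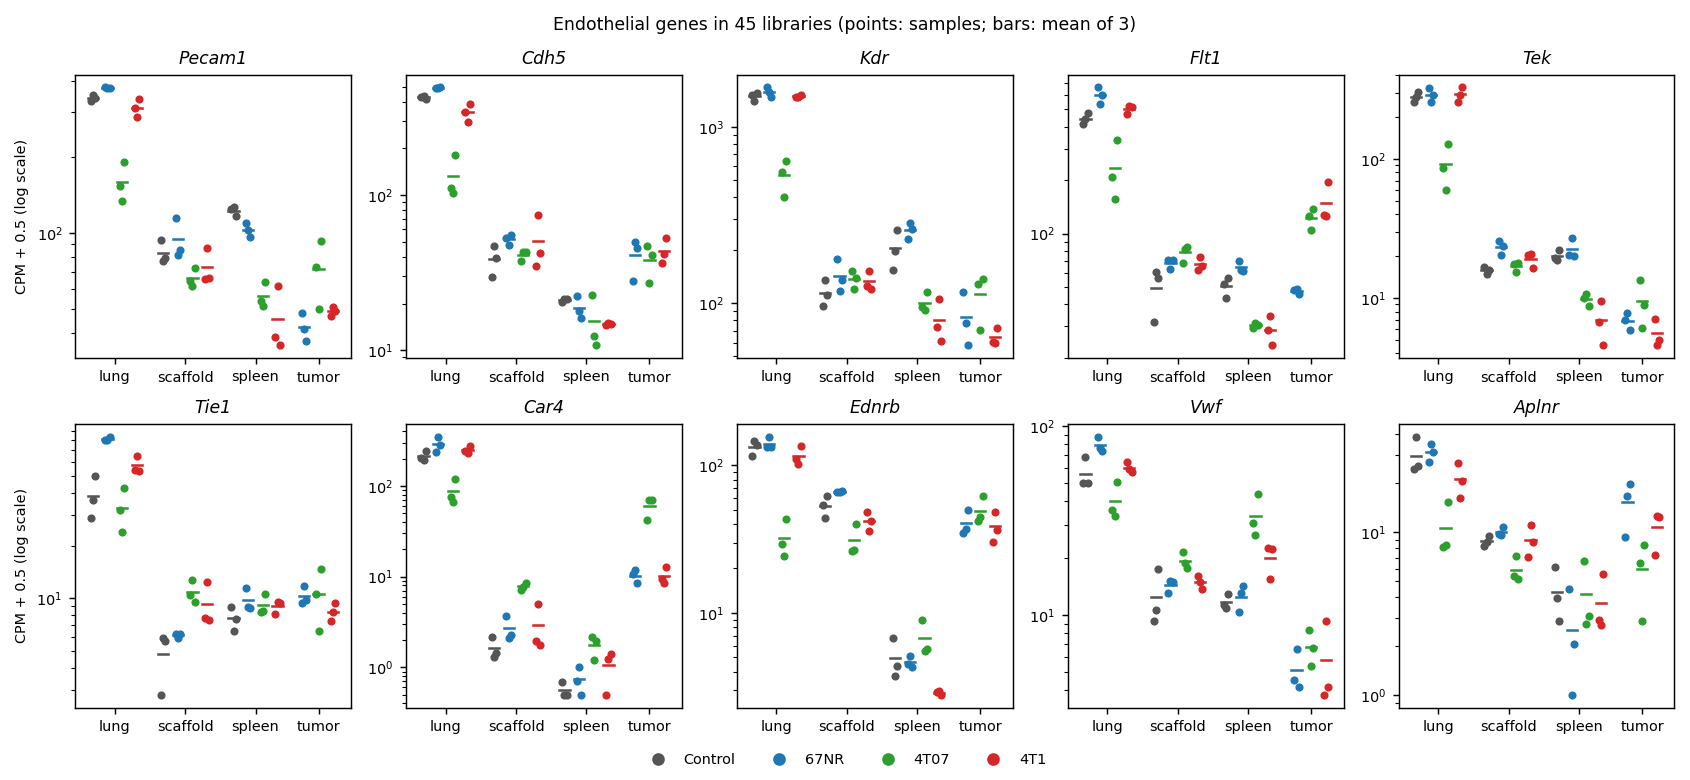
CPM plus 0.5 (log scale, vertical axis) of each of the 10 genes in every library, by tissue (horizontal axis) and condition (color), with bars at the mean of 3. The lungs lie highest for each gene, and the libraries labelled 4T07 lung lie below the other lungs for most genes.

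In the lungs, none of the 10 genes was called between control, 67NR and 4T1 mice. Within a tissue the call in lungs, scaffolds and spleens needed a fold change over 2 with an adjusted p under 0.10, as the study set it. By that rule 0 of the 10 genes were called between 67NR and control lungs (2 at an unadjusted p under 0.05, and 0 by DESeq2) and 0 between 4T1 and control lungs (1 at an unadjusted p under 0.05, and 0 by DESeq2), where 4.25% and 4.61% of all 21937 genes were called. The count was also 0 for 4T1 against 67NR lungs (2 at an unadjusted p under 0.05, 0 by DESeq2, and 5.03% of all genes called). Replicates of 5 of the 10 genes (Cdh5, Flt1, Pecam1, Tie1 and Vwf, all higher) did not overlap between 67NR and control lungs. With both directions counted, 28.6% of all genes did not overlap there. Replicates of 2 of the 10 (Tie1, higher, and Cdh5, lower) did not overlap between 4T1 and control lungs, beside 27.1% of all genes in both directions. The counts of calls were again 0 when the fit held only the compared groups, without the libraries labelled 4T07 lung. Kdr, for example, stood at 1522, 1407 and 1564 CPM in control lungs, 1680, 1590 and 1484 CPM in 67NR lungs and 1479, 1491 and 1521 CPM in 4T1 lungs, and the 3 groups overlapped.

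Tie1, the orphan partner of Tek, came closest to a call. It stood at 28.2, 36.1 and 49.5 CPM in control lungs, 79.9, 79.6 and 82.9 CPM in 67NR lungs and 53.8, 64.8 and 52.6 CPM in 4T1 lungs. Neither the 67NR nor the 4T1 lungs overlapped with the controls. The log2 fold change was 0.99 (SE 0.19, adjusted p = 0.00334) for 67NR lungs and 0.61 (SE 0.19, adjusted p = 0.0554) for 4T1 lungs, both short of the fold required. Without control lung replicate 3, the highest control, Tie1 in 67NR lungs reached 1.21 and was called. Tek itself was at 257, 277 and 304 CPM in control lungs and 325, 255 and 288 CPM in 67NR lungs, and the groups overlapped. Among the 28 other endothelial genes, Shank3 (log2 fold change 1.31) and the transcription factor Sox18 (1.17) were called higher in 67NR lungs, and Sox18 was called lower in 4T1 lungs (-1.51). All 9 neutrophil genes were called higher in 4T1 than in control lungs, with a median log2 fold change of 6.23, while 0 of the 10 endothelial genes were called.

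Endothelial genes were lower in the libraries labelled 4T07 lung. Against the controls, 7 of the 10 genes were called lower and 0 higher, where 13.7% of all genes were called lower and 15.3% higher, and the median log2 fold change of the 10 was -1.33 against -0.01 over all genes. Ednrb and Cdh5 showed the widest gaps. The same libraries held less lung epithelial RNA and more erythroid, platelet, pancreas and spleen RNA, as given above. In whole-tissue RNA, fewer endothelial cells and less RNA per endothelial cell cannot be told apart. Nor can either be told from a larger share of RNA of other tissues, whose part was not tested.

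By role, the junction gene Cdh5 stood at 111, 103 and 182 CPM in the libraries labelled 4T07 lung, against 415 to 437 CPM in the controls, a log2 fold change of -1.63 (SE 0.18, adjusted p = 3.16e-07). Pecam1 stood at 153, 133 and 191 CPM, a log2 fold change of -1.04 (SE 0.14), and the call was lost without replicate 1 (-0.98) or replicate 2 (-0.93) of the 4T07 lungs. No library labelled 4T07 lung reached the lowest control for either gene. Replicate 3 of these libraries, which also had the highest Sftpc of the 3, was the highest of them for all 10 genes.

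Among the VEGF receptors, Kdr fell from 1497 ± 81.0 CPM (SD, n = 3) to 555, 402 and 642 CPM, a log2 fold change of -1.43 (SE 0.16, adjusted p = 3.17e-07). Flt1 stood at 207, 157 and 335 CPM against 412, 442 and 477 CPM in the controls, without overlap, but at -0.87 (SE 0.19, adjusted p = 0.000952) it did not reach the fold required, and it did at -1.21 without replicate 3 of the 4T07 lungs. Of the angiopoietin receptors, only Tek was called lower. Tek fell to 85.5, 59.5 and 129 CPM, a log2 fold change of -1.55 (SE 0.20), whereas Tie1 stood at 31.3, 23.3 and 42.1 CPM and overlapped with the controls (-0.17, SE 0.20, adjusted p = 0.518).

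The capillary genes were lower together. Car4 and Ednrb, which mark aerocytes, fell to 74.9, 66.5 and 120 CPM and to 28.8, 24.0 and 42.5 CPM, with log2 fold changes of -1.23 (SE 0.19) and -2.01 (SE 0.19). Aplnr, which marks general capillary cells, fell to 7.62, 7.85 and 14.8 CPM from 24.1, 37.9 and 24.9 CPM (-1.46, SE 0.26). Vwf stood at 35.4, 33.0 and 50.3 CPM and overlapped with the controls at 49.3, 67.8 and 49.2 CPM (-0.42, SE 0.17, adjusted p = 0.0474). Platelet genes, which share Vwf and Pecam1 with endothelium, rose by a median of 4.28 on the log2 scale, and all 10 of them were called higher.

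Other vessel genes pointed the same way in most lists. Of 28 other endothelial genes, 14 were called lower, led by Icam2 (-2.09) and Clec14a (-2.08), and 1 was called higher, Tal1 (3.14), a transcription factor that blood-forming cells share with endothelium. Of 9 aerocyte genes, 7 were called lower, among them the junction gene Prx (-2.38), Fibin (-2.04) and Emp2 (-2.01), and of 9 general capillary genes 5 were called lower, among them Hilpda (-2.71), Lpl (-2.04) and Gpihbp1 (-1.85). Of 18 ligands and partners tested, 7 were called lower and 1 higher, including endothelin-1, Edn1 (-2.15), and the apelin ligand Apln (-1.98). The one called higher was Adamts13, the protease that trims VWF, which had 1 count in the control lungs and 11 in the libraries labelled 4T07 lung, a ratio of 13.5 with a counting interval of 1.97 to 583. Of 13 genes of arteries and venules 3 were called higher, among them Ackr1 (4.92) and Selp (2.48), and 4 lower. Of 7 genes of lymphatic and sinus vessels 2 were called higher and 2 lower, and the higher included Stab2 (3.30), a gene of spleen and liver sinus endothelium, which is at 61.1 to 180 CPM in the spleens.

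The 10 genes were also set against the lung epithelial genes of the same libraries. The log2 ratio of each gene (CPM plus 0.5) to the 9 lung epithelial genes was compared with the control lungs. It differed by -0.33 (Ednrb) to 1.52 (Tie1) in the libraries labelled 4T07 lung. The range was -0.32 (Aplnr) to 0.76 (Tie1) in 4T1 lungs and -0.01 (Tek) to 1.06 (Tie1) in 67NR lungs. For the median level of the 10 genes in each library, the ratio differed by 0.26 in the libraries labelled 4T07 lung. That difference was 0.29 in 4T1 and 0.17 in 67NR lungs. In the libraries labelled 4T07 lung the ratio differed by 0.02 for Cdh5 and 0.08 for Tek, both called lower. It differed by 0.24 for Kdr, 0.25 for Aplnr and 0.43 for Car4. Pecam1 was 0.64, Flt1 0.76 and Vwf 1.27 above the control ratio. Set against the 28 other endothelial genes, the same libraries differed from the controls by -1.17 for Ednrb, -0.81 for Cdh5 and -0.75 for Tek, and by 0.69 for Tie1 and 0.43 for Vwf. These ratios are values without a test.

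**Figure D3:**
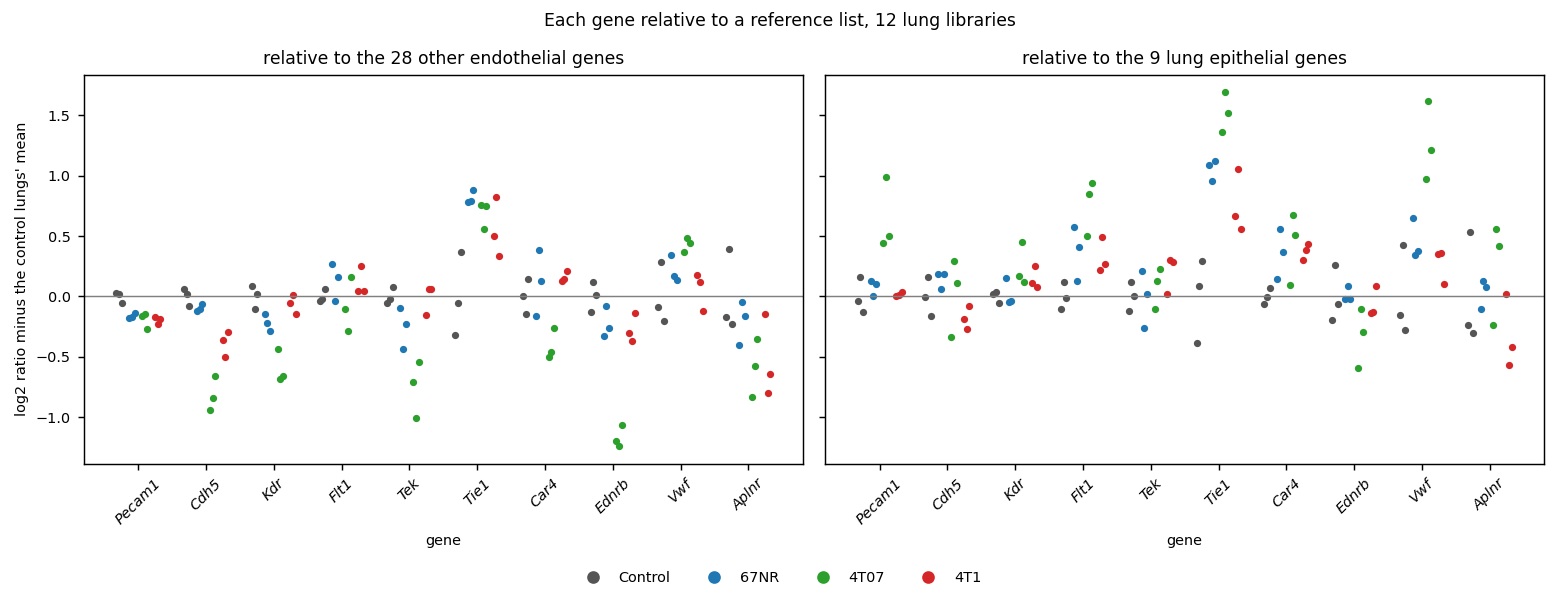
Log2 ratio of each gene to the 28 other endothelial genes (left) and to the 9 lung epithelial genes (right) in each of 12 lung libraries, minus the mean of the control lungs. In the libraries labelled 4T07 lung, Ednrb and Cdh5 average -1.17 and -0.81 on the left, and 9 of the 10 genes average above 0 on the right.

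The lungs of 4T1 and 67NR mice gave the mirror of these values when set against the libraries labelled 4T07 lung. In 4T1 lungs, 6 of the 10 genes were called higher than in the libraries labelled 4T07 lung (11.6% of all genes were), led by Ednrb (log2 fold change 1.82, SE 0.19), Tek (1.62, SE 0.20) and Car4 (1.47, SE 0.20). Against 67NR lungs, 9 of the 10 genes were called lower in the libraries labelled 4T07 lung (15.3% of all genes were), from -1.07 (Pecam1) to -1.98 (Ednrb), and Vwf stood at -0.82 (SE 0.17). Without replicate 2 of the 4T07 lungs the latter count was 6, as Flt1 (-0.98), Pecam1 (-0.96) and Tie1 (-0.97) dropped below the fold required. Flt1 was also lost against 4T1 lungs without replicate 1 (0.95) or replicate 2 (0.83) of the 4T07 lungs. Without replicate 3 of the 4T07 lungs, Pecam1 (1.05) and Aplnr (1.34, and 1.14 without 4T1 lung replicate 2) were called higher in 4T1 lungs, and Vwf (-1.02) was called lower against 67NR lungs. These comparisons share the libraries labelled 4T07 lung with the comparison against controls.

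In the scaffolds, Car4 and Tie1 rose in 4T07-bearing mice, and none of the 10 genes was called between control, 67NR and 4T1 mice. Between 67NR and control scaffolds 0 of the 10 genes were called (1 at an unadjusted p under 0.05, 0 by DESeq2), and 0 of all 22156 genes were called. Between 4T1 and control scaffolds 0 of the 10 were called (2 at an unadjusted p under 0.05, 0 by DESeq2), where 0.0226% of all genes, 5 genes, were called. The same share of all genes and 0 of the 10 (2 at an unadjusted p under 0.05, 0 by DESeq2) were called between 4T1 and 67NR scaffolds. In 4T07 against control scaffolds, 2 of the 10 were called higher and 0 lower, where 3.85% of all genes were called higher and 3.59% lower.

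Car4 showed the largest change among the 10 genes in scaffolds. It stood at 1.68, 0.79 and 0.94 CPM in control scaffolds, 3.14, 1.60 and 1.80 CPM in 67NR scaffolds, 6.61, 7.27 and 8.08 CPM in 4T07 scaffolds and 1.47, 4.48 and 1.26 CPM in 4T1 scaffolds. The 4T07 scaffolds overlapped with no other scaffold group, and the log2 fold change was 2.56 (SE 0.46, adjusted p = 0.00231) against controls. It was also called against 67NR scaffolds (1.68, SE 0.41, adjusted p = 0.0181), where 2.82% of all genes were called higher. In 4T1 against 4T07 scaffolds Car4 was the 1 member called, and lower (-1.60, SE 0.41, adjusted p = 0.0817), where 0.366% of all genes were called lower, a call that was lost when only the compared groups were fitted. It was also lost without any 1 of 8 of the scaffolds, which were replicates 2 and 3 of the control, 67NR and 4T07 groups (-1.52 to -1.60) and replicates 1 (-1.35) and 3 (-1.33) of the 4T1 group. Of 9 lung epithelial genes, 0 were called in 4T07 against control scaffolds (median log2 fold change -0.44), and their part in the Car4 value was not tested.

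Tie1 stood at 2.31, 5.38 and 5.19 CPM in control scaffolds and at 9.91, 12.2 and 9.01 CPM in 4T07 scaffolds, a log2 fold change of 1.11 (SE 0.29, adjusted p = 0.0185). The groups did not overlap, but the call was lost without control scaffold replicate 1 (0.85), the lowest control, or without 4T07 scaffold replicate 2 (0.96). Tek, the other angiopoietin receptor, was at 16.4, 14.4 and 15.4 CPM in control and 17.0, 14.9 and 17.4 CPM in 4T07 scaffolds, and these overlapped. Without replicate 1 of the 4T07 scaffolds, which carried the traces of spleen and pancreas genes, Car4 and Tie1 were both still called.

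Ednrb was the member with the clearest difference in the other direction. It stood at 53.1, 43.9 and 61.5 CPM in control scaffolds, 66.0, 65.5 and 66.7 CPM in 67NR scaffolds, 25.9, 26.3 and 39.6 CPM in 4T07 scaffolds and 47.5, 35.6 and 41.3 CPM in 4T1 scaffolds. It was called lower in 4T07 than in 67NR scaffolds (-1.18, SE 0.20, adjusted p = 0.00209), where 3.03% of all genes were called lower. Against controls it was -0.93 (SE 0.20, adjusted p = 0.00622), short of the fold required, and was called without control scaffold replicate 2 (-1.06) or 4T07 scaffold replicate 3 (-1.16). Of 8 pigment and glial genes, which mark other cells that use Ednrb, 1 was called lower in 4T07 than in control scaffolds, the pigment gene Mlana (-1.87), and its part in the result was not tested. Aplnr (-0.77, adjusted p = 0.0445), Pecam1 (-0.48, adjusted p = 0.0845) and Flt1 (0.53, adjusted p = 0.0779) passed the p threshold in 4T07 against control scaffolds without the fold required. In 4T07 against 67NR scaffolds, Aplnr was called lower without 4T07 scaffold replicate 2 (-1.09).

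Among other vessel genes in 4T07 against control scaffolds, 3 of 28 endothelial genes were called higher and 0 lower. They were Tal1 (2.33), the tight junction gene Cldn5 (1.62) and Plvap (1.03), which forms the diaphragms of permeable vessels. Of 18 ligands and partners 1 was called, Flt4, the receptor of lymphatic vessels (1.26). Of 13 genes of arteries and venules 1 was called, the adhesion molecule Sele (-1.62), and of 9 general capillary genes 1 was called higher and 1 lower, the guidance factor Sema3c (-1.21). Of genes of other cells, 7 of 10 platelet, 8 of 9 erythroid, 8 of 9 neutrophil and 5 of 6 tested exocrine pancreas genes were called higher in the 4T07 scaffolds, and their part in the result was not tested. Relative to the 28 other endothelial genes, Car4 was 1.98 above and Tie1 0.94 above the control ratio on the log2 scale, and Ednrb 1.10 below it (-1.10).

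The change from control differed between lung and scaffold for 9 of the 10 genes in 4T07 mice. This difference was tested as an interaction term over all 45 libraries, with an adjusted p under 0.10 and no rule on fold, and 10.4% of all genes passed it with a lower value in lung and 8.29% with a higher value. For all 9 genes the change in lung lay below the change in scaffold, a log2 difference from -0.67 (Pecam1, adjusted p = 0.0625) to -3.91 (Car4, adjusted p = 7.28e-08), and Aplnr did not pass (-0.79, adjusted p = 0.358). Between 4T1 and 4T07 mice 9 of the 10 genes passed with a higher value in lung, where 9.19% of all genes did. In 67NR mice against controls 0 of the 10 genes passed (1 at an unadjusted p under 0.05, 0 by DESeq2, and 0.00723% of all genes), and in 4T1 mice against controls 0 passed (0 at an unadjusted p under 0.05, 0 by DESeq2, and 0.951% of all genes). The 4T07 difference rests on the libraries labelled 4T07 lung, and the call for Pecam1 was lost, at -0.56 to -0.65, without any 1 of control scaffolds 2 and 3, control lung 2, 4T07 scaffold 3 and 4T07 lungs 1 and 2. The median over all genes of this difference was -0.12 on the log2 scale.

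In the spleens, the VEGF receptor Kdr, Tek and Pecam1 were lower and Vwf higher in mice with 4T07 or 4T1 tumors. All of these were called in 4T1 against control spleens, but only Vwf among them in 4T07 against control spleens. Of the 10 genes, 3 were called lower and 1 higher in 4T1 against control spleens, where 10% of all 21128 genes were called lower and 9.84% higher. In 4T07 against control spleens 2 were called higher and 0 lower, where 8.26% of all genes were called higher and 10.3% lower. Between 67NR and control spleens 0 of the 10 were called (0 at an unadjusted p under 0.05, 0 by DESeq2), where 2.26% of all genes were called in either direction. Against 67NR spleens, 1 member was called higher and 2 lower in 4T1 spleens (10.3% and 10.4% of all genes), and 2 were called higher and 1 lower in 4T07 spleens (6.5% and 8.2%). Between 4T1 and 4T07 spleens 1 was called, lower, where 1.5% of all genes were. Other cells moved with these values. The 9 neutrophil genes summed to 993 to 1736 CPM in control, 24993 to 30619 CPM in 4T07 and 12590 to 32899 CPM in 4T1 spleens, and the 9 lymphocyte genes to 853 to 986, 344 to 423 and 223 to 344 CPM. Pecam1 is a gene of leukocytes as well, and the part of these cells in the values of the 10 genes was not tested.

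Kdr stood at 155, 198 and 262 CPM in control spleens, 232, 286 and 264 CPM in 67NR spleens, 94.3, 90.9 and 116 CPM in 4T07 spleens and 72.9, 105 and 61.0 CPM in 4T1 spleens. The spleens of 4T07 and 4T1 mice lay below those of controls and 67NR mice without overlap. The log2 fold change from control was -1.11 (SE 0.21, adjusted p = 0.000871) for 4T1 and -0.85 (SE 0.21, adjusted p = 0.00661) for 4T07, and only the 4T1 value reached the fold required. It was lost without control spleen replicate 3 (-0.95) or 4T1 spleen replicate 3 (-0.98). Against 67NR spleens Kdr was called lower in both, at -1.37 (SE 0.21) for 4T1 and -1.11 (SE 0.21) for 4T07, and so was Tek in 4T1 spleens (-1.42, SE 0.25).

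Tek and Pecam1 followed the same order. Tek stood at 19.0, 18.2 and 21.8 CPM in control, 9.47, 10.2 and 8.31 CPM in 4T07 and 6.23, 9.06 and 4.11 CPM in 4T1 spleens, with log2 fold changes of -0.89 (SE 0.24, adjusted p = 0.0101) and -1.36 (SE 0.25, adjusted p = 0.000616). Pecam1 stood at 123, 126 and 116 CPM in control, 53.3, 50.6 and 63.6 CPM in 4T07 and 38.1, 61.2 and 35.4 CPM in 4T1 spleens, with log2 fold changes of -0.96 (SE 0.19, adjusted p = 0.00135) and -1.19 (SE 0.19, adjusted p = 0.000201). For both genes the 4T07 and 4T1 spleens lay below the controls without overlap, and only the 4T1 values were called. Flt1 was at 51.5, 42.9 and 55.6 CPM in control, 29.0, 30.9 and 30.1 CPM in 4T07 and 28.1, 33.8 and 23.1 CPM in 4T1 spleens (-0.56 and -0.57). The difference between the 4T07 and 4T1 spleens was not past the test for any of these 4 genes. In 4T07 spleens Pecam1 was called without control spleen replicate 3 (-1.01) or 4T07 spleen replicate 3 (-1.08), and Kdr without control spleen replicate 1 (-1.01).

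Against the controls, the CPM values of the 4T07 and 4T1 spleens gave lower ratios than the fitted fold changes, because the fit rescaled the libraries. With library totals alone, the median over all genes was -0.26 for 4T07 and -0.35 for 4T1 against control spleens, compared with -0.09 and -0.10 in the fit. On that scale Kdr (-1.03), Pecam1 (-1.13) and Tek (-1.07) were called lower in 4T07 spleens too, giving 5 calls in place of 2, and Vwf in 4T1 spleens (0.80) was not called. For these 4 genes the directions were the same on both scales.

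Vwf differed in the other direction. It stood at 10.9, 10.4 and 12.5 CPM in control spleens, 9.84, 12.5 and 13.7 CPM in 67NR spleens, 30.1, 26.1 and 43.2 CPM in 4T07 spleens and 22.1, 14.9 and 21.9 CPM in 4T1 spleens. The groups with 4T07 and 4T1 tumors lay above the others without overlap, and the log2 fold change from control was 1.72 (SE 0.24, adjusted p = 6.48e-05) for 4T07 and 1.06 (SE 0.24, adjusted p = 0.00327) for 4T1. The 4T1 value dropped below the fold required without control spleen replicate 2 (1.00), 4T1 spleen replicate 1 (0.98) or 4T1 spleen replicate 3 (0.94). Against 67NR spleens Vwf was called higher in 4T07 (1.73, SE 0.24) and 4T1 spleens (1.07, SE 0.24), and the latter call was lost without 67NR spleen replicate 1 (0.95) or 4T1 spleen replicate 1 (0.98) or 3 (0.96). Megakaryocytes and platelets carry Vwf, and the platelet list moved with it. Its summed level was 370 to 572 CPM in control, 1848 to 2423 CPM in 4T07 and 821 to 1826 CPM in 4T1 spleens, with 9 and 8 of its 10 genes called higher, among them Gp1bb (2.67) and Gp5 (2.56) in 4T07 and Pf4 (2.05) and Itga2b (1.83) in 4T1 spleens. The part of megakaryocytes in the Vwf values was not tested.

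Car4 in spleen was near the floor of detection, where 3 counts were worth at most 0.859 CPM. Over 3 libraries each it had 1 count in control, 3 in 67NR, 17 in 4T07 and 7 in 4T1 spleens. The ratio of 4T07 to control spleens was 17.0 with a counting interval of 2.66 to 709, and that to 67NR spleens was 5.27 with an interval of 1.52 to 28.1. Car4 was called higher in 4T07 spleens against both (adjusted p = 0.0168 and 0.0645), and the second call was lost with DESeq2 and without any of 67NR spleen replicate 1 (2.47) or 3 (1.98) or 4T07 spleen replicate 1 (2.28) or 3 (2.43). In 4T1 against control spleens Car4 was called without control spleen replicate 1 (4.54) or 4T1 spleen replicate 1 (3.36). Lung epithelial genes were also higher in the 4T07 spleens, with 6 of 9 called, and their part in the Car4 value was not tested. Ednrb was at 8.44, 5.00 and 5.15 CPM in 4T07 and 2.40, 2.45 and 2.29 CPM in 4T1 spleens, a log2 fold change of -1.29 (SE 0.34, adjusted p = 0.0620) that was lost without any 1 of the 4T1 spleens (-1.29 each) and without 4T07 spleen replicate 1 (-1.04) or 2 (-1.41). Cdh5, Tie1 and Aplnr were not called between any spleen groups, but without 67NR spleen replicate 1 Aplnr was called higher than in 67NR spleens in 4T07 (2.02) and 4T1 spleens (1.94).

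Other vessel genes of the spleen changed in both directions. Of 27 other endothelial genes tested, 4 were called lower and 1 higher in 4T07 against control spleens, among them S1pr1 (-1.34), the sphingosine receptor, Ptprb (-1.22), the phosphatase that restrains Tek, and Tal1 (1.17). In 4T1 spleens 6 were called lower and 2 higher, including Emcn (-1.49), Ptprb (-1.45) and Rasip1 (-1.42). The ligand Apln rose in both (2.15 and 1.52) and Edn3, an endothelin, fell in both (-1.55 and -1.51). Of 13 genes of arteries and venules, 3 were called higher and 4 lower in 4T07 spleens and 3 higher and 2 lower in 4T1 spleens. Bmx (3.25 and 3.41) and Selp (2.51 and 2.50) were among the higher, while the summed level of the list was 994 to 1187 CPM in control, 526 to 666 CPM in 4T07 and 584 to 754 CPM in 4T1 spleens. Esm1, a gene of sprouting vessels, fell (-1.93 and -1.70). Of 7 genes of lymphatic and sinus vessels tested, 4 were called higher and 2 lower in 4T07 spleens, Lyve1 (3.60), Pdpn (2.98) and Mmrn1 (2.37) among the higher, and the list summed to 180 to 206 CPM there and 202 to 253 CPM in control spleens. These comparisons share the control spleens.

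**Figure D4:**
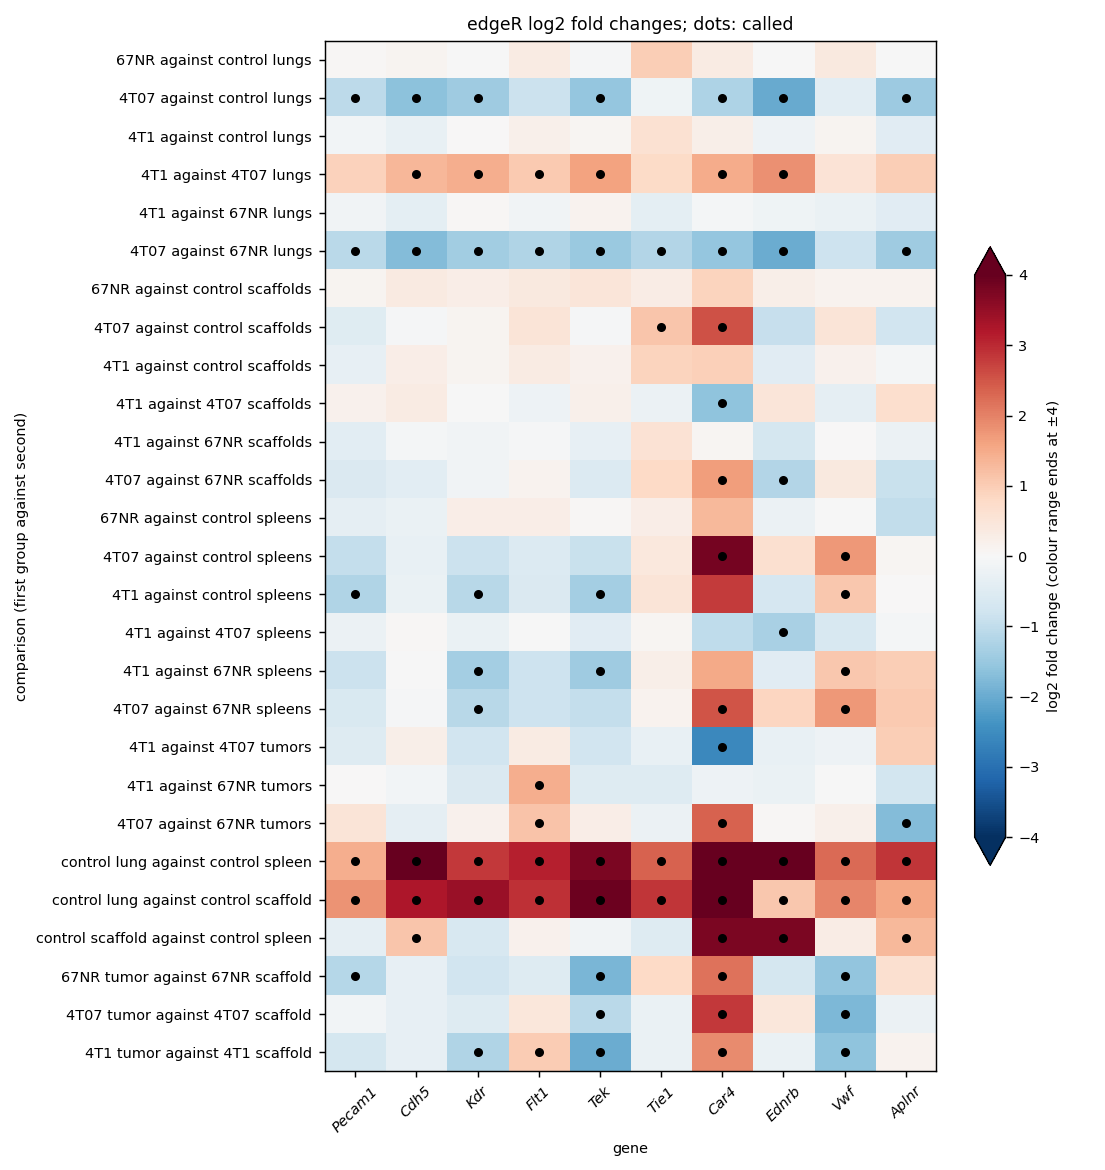
Log2 fold change (color, range ending at 4 in each direction) of the 10 genes (horizontal axis) in 27 comparisons (vertical axis, the group named first over the second), with a dot where the gene was called. The libraries labelled 4T07 lung form the rows with the most dots below 0, and control lung against scaffold or spleen the rows with all 10 above 0.

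In the primary tumors, Flt1 was higher in both 4T07 and 4T1 tumors than in 67NR tumors, and Car4 was higher in 4T07 tumors alone. Of the 10 genes, 2 were called higher and 1 lower in 4T07 against 67NR tumors, where 17.1% and 11.8% of all 20508 genes were. In 4T1 against 67NR tumors 1 was called higher and 0 lower, where 11.6% and 9.07% of all genes were, and in 4T1 against 4T07 tumors 1 was called lower, where 4.79% of all genes were.

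The VEGF receptors parted in the tumors. Flt1 stood at 47.6, 48.1 and 45.5 CPM in the 67NR tumors, at 125, 105 and 137 CPM in the 4T07 tumors and at 126, 125 and 194 CPM in the 4T1 tumors. The 67NR tumors lay below the others without overlap, with log2 fold changes of 1.13 (SE 0.20, adjusted p = 0.000355) for 4T07 and 1.46 (SE 0.20, adjusted p = 4.51e-05) for 4T1. Kdr was at 115, 77.2 and 57.6 CPM in the 67NR tumors, at 128, 70.4 and 138 CPM in the 4T07 tumors and at 59.8, 59.2 and 71.9 CPM in the 4T1 tumors, and all 3 groups overlapped (0.18, SE 0.25, for 4T07 and -0.58, SE 0.26, for 4T1 against 67NR). Relative to the 28 other endothelial genes, Flt1 was 1.16 above the 67NR ratio in 4T07 and 1.59 above it in 4T1 tumors on the log2 scale. Genes of other cells moved with these values. The 6 fibroblast genes had a mean sum of 988 CPM in the 67NR tumors, 6095 CPM in the 4T07 tumors and 7364 CPM in the 4T1 tumors, and the 5 epithelial genes of the tumor lines 24.5, 199 and 994 CPM in that order. The 9 macrophage and monocyte genes, cells that can carry Flt1, had mean sums of 2772, 3074 and 2353 CPM in that order. The part of these cells in the Flt1 values was not tested.

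Car4 stood at 10.2, 11.2 and 7.90 CPM in the 67NR tumors, at 41.5, 68.6 and 70.0 CPM in the 4T07 tumors and at 8.96, 7.99 and 12.3 CPM in the 4T1 tumors. The 4T07 tumors lay above both other lines without overlap, with log2 fold changes of 2.37 (SE 0.26, adjusted p = 5.72e-06) over 67NR and, in 4T1 against 4T07, -2.57 (SE 0.26, adjusted p = 1.03e-05). Both calls remained without 4T07 tumor replicate 1, the library with traces of spleen and pancreas genes and the lowest Car4 of the 3. Beside this, 9 of 9 neutrophil, 8 of 9 erythroid and 6 of 9 tested platelet genes were called higher and 4 of 9 lung epithelial genes lower in 4T07 than in 67NR tumors, and their part in the result was not tested. Ednrb, the other aerocyte gene, was at 34.4, 36.4 and 49.7 CPM in 67NR and 41.5, 43.9 and 61.5 CPM in 4T07 tumors, and these overlapped.

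Aplnr was the member called lower in 4T07 tumors. It stood at 8.87, 16.2 and 19.2 CPM in the 67NR tumors, at 6.02, 2.36 and 7.90 CPM in the 4T07 tumors and at 6.77, 12.1 and 11.9 CPM in the 4T1 tumors, and the 4T07 and 67NR tumors did not overlap (-1.73, SE 0.41, adjusted p = 0.00343). In 4T1 against 67NR tumors it was -0.74 (SE 0.38, adjusted p = 0.161), and -1.03 and called without 67NR tumor replicate 1. Pecam1, Cdh5, Tek, Tie1, Ednrb and Vwf were not called between any tumors.

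Ligands of these receptors were also called between the tumors. Of 16 ligands and partners tested, 8 were called higher and 0 lower in 4T07 against 67NR tumors, led by Vegfc, a ligand of Flt4 and Kdr, the Tek ligand Angpt1 (2.78), and Vegfd (2.29). In 4T1 against 67NR tumors 5 were called higher and 1 lower, led by Vegfc, Edn1 (2.03) and the Flt1 ligand Pgf (1.74). Vegfc had 2 counts in the 67NR tumors, 120 in the 4T07 and 48 in the 4T1 tumors, a ratio over 67NR of 46.3 (counting interval 12.5 to 387) and 17.4 (4.55 to 147). Angpt1 was at 5.37 CPM in the 67NR tumors, at 44.1 CPM in the 4T07 tumors and at 8.71 CPM in the 4T1 tumors. The tip cell gene Esm1 had a mean of 5.65 CPM in the 67NR tumors, 159 CPM in the 4T07 tumors and 8.34 CPM in the 4T1 tumors, and the apelin ligand Apln rose in 4T1 over 67NR tumors (1.57, from 29.0 to 98.6 CPM). Of the 28 other endothelial genes, 5 were called higher and 6 lower in 4T07, and 2 higher and 5 lower in 4T1, against 67NR tumors, and the median log2 fold change was 0.02 and -0.17, beside 0.16 and 0.09 over all genes.

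Against the scaffold of mice with the same line, the primary tumor held less Vwf and Tek and more Car4 for all 3 lines. These were called for each line, and 4 genes were called in 67NR (12.8% of all genes higher and 15.7% lower), 3 in 4T07 (8.28% and 8.67%) and 5 in 4T1 mice (10.3% and 10.7%). When libraries were scaled by their totals alone, 2 genes were called in 4T07 mice. The median over all genes was -0.23 in 67NR mice and 0 in the others on the log2 scale. Vwf was at 4.03, 6.15 and 3.67 CPM in 67NR tumors against 12.6, 14.6 and 14.4 CPM in 67NR scaffolds, and the log2 fold change was -1.57 (SE 0.29) for 67NR, -1.80 (SE 0.26) for 4T07 and -1.61 (SE 0.27) for 4T1. Tek gave -1.82 (SE 0.26), -1.08 (SE 0.24) and -2.0 (SE 0.25), and the 4T07 value was lost without 4T07 tumor replicate 2 (-0.80). Car4 gave 2.18 (SE 0.36), 2.83 (SE 0.28) and 1.90 (SE 0.35). For all 3 genes tumor and scaffold did not overlap in any line.

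The remaining calls differed by line. Pecam1 was lower in the tumor than in the scaffold of 67NR mice (-1.15, SE 0.18), and stood at -0.10 (SE 0.18; 0.11 with library totals alone) in 4T07 and -0.72 (SE 0.18) in 4T1 mice. In 4T1 mice Kdr was lower in the tumor (-1.20, SE 0.21) and Flt1 higher (1.02, SE 0.20), and the Flt1 call was lost with DESeq2 (0.98) and without 4T1 scaffold replicate 1 (0.96) or 4T1 tumor replicate 3 (0.78). Cdh5, by contrast, gave -0.32, -0.32 and -0.34 in the 3 lines and was called in none. In 67NR mice Kdr was called lower in the tumor without 67NR tumor replicate 1 (-1.04). Whether these differences from scaffold differ between the lines was not tested.

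**Figure D5:**
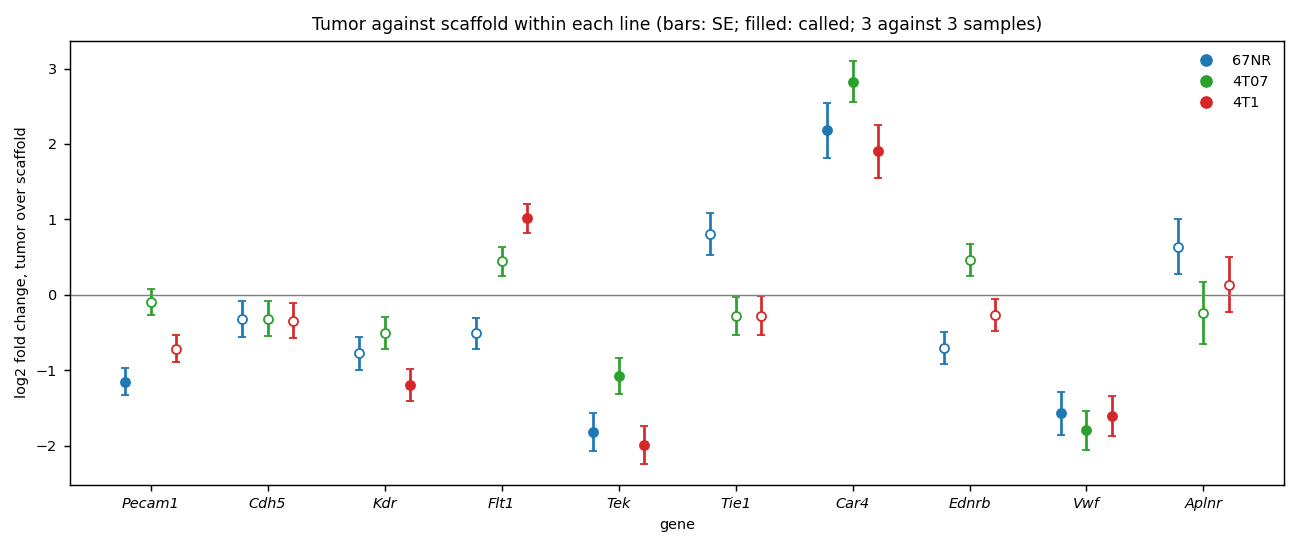
Log2 fold change of tumor over scaffold (vertical axis) for each of the 10 genes (horizontal axis) in the 3 lines (color), with bars of 1 SE and filled points where called. Car4 lies above 0 and Tek and Vwf below 0 in all 3 lines.

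The pattern of the 10 genes was set beside that of all others. Compared were 12047 genes with a mean of at least 5 CPM, a number that includes the 10, which were left out of the ranking. Over the 15 group means, the highest Pearson's r with the mean z-score of the 10 genes belonged to Hey1 (0.995), a Notch target of arteries. Tbx5 (0.991) and Lgi3 (0.990) followed. The next were Arhgef26, Cytl1, Exph5, Wipf3, Nckap5, Itgb6 and Ccdc141, the last at 0.986. Among these, Hey1 is in the list of arteries and venules, and the others are in none of the marker lists. Without the libraries labelled 4T07 lung, Hey1 was first again (0.996, 14 group means). Within the 12 lungs alone the likest genes were Rbms3 (0.995), Dgkh (0.992) and Prkce (0.990), and without the libraries labelled 4T07 lung, over 9 lungs, Slc45a3 (0.981). These correlations are descriptions over points that share tissues and libraries.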

How the data were processed

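Whole-tissue RNA was made into 3′ tag libraries with UMIs (QuantSeq). The authors deposited 1 table of raw gene counts for 45 libraries; the submitters' processing notes name Trim Galore 0.5.0, STAR 2.6.0 and featureCounts, while the genome build, annotation and use of UMIs are not given in the sources used here. A 3′ tag count scales with transcripts, not length. Of 55487 lines, 120 repeated a symbol and were summed. Replicates of a group differed by at least 3.88 times counting noise (chi-square per degree of freedom, 45 pairs), so none was a duplicate. Library totals were 4609634 to 7081417 counts in lungs, 4767440 to 8175380 in scaffolds, 3491888 to 5794832 in spleens and 3542368 to 5511691 in tumors. The counting intervals are exact binomial ones (95%) and cover counting error only.

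Each tissue was fitted with edgeR 4.0.16 (R 4.3.3; quasi-likelihood test, TMM) over its groups, on genes with more than 10 counts over the fitted libraries, and all 45 libraries were fitted for comparisons between tissues. Calls needed a fold over 2 and an adjusted p under 0.1 (0.05 for tumors and between tissues). DESeq2 1.42.0 and other filters, scalings and left-out libraries were alternatives. An exact permutation test of 3 against 3 cannot go below 0.1. On simulated data, 95.5% to 100% of 200 genes with a mean of at least 5 CPM, changed 4-fold, were called. Of the calls, 1.98% to 7.73% were of unchanged genes. Smaller changes and genes at lower levels were not simulated. The 10 genes and 20 marker lists were chosen with earlier results of these data known. Genes outside the 10 were named by rule, as the 3 largest changes of a list among calls without overlap, or the likest patterns. CPM values are counts scaled to a library total of 1000000.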

Additional observations from a re-analysis of the deposited data

Results flagged for a closer look

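For 9 of the 10 genes, the change from control to 4T07 mice differed between lung and scaffold by the interaction test of edgeR, where 10.4% of all genes passed in that direction. The log2 change in lung minus that in scaffold was -3.91 for Car4, -1.69 for Cdh5, -1.66 for Kdr, -1.62 for Tek, -1.51 for Flt1, -1.38 for Tie1, -1.19 for Ednrb, -1.05 for Vwf and -0.67 for Pecam1. Between 4T07 and 4T1 mice 9 genes differed by the same test, by 3.14 for Car4, 1.54 for Kdr, 1.5 for Tek, 1.42 for Ednrb, 1.33 for Flt1, 1.08 for Cdh5, 1.08 for Tie1, 0.98 for Vwf and 0.84 for Pecam1, where 9.19% of all genes passed in that direction. The Vwf value in the second set was no longer past the test without 4T07 lung replicate 2 (0.87). Both sets share the libraries labelled 4T07 lung and the 4T07 scaffolds. The former carried spleen, pancreas and blood genes, as described above, whose part in these values was not tested.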

How the results depend on the processing

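No value of the 10 genes that was called in the reported fit or under an alternative turned its direction. Of 5205 values under the alternatives, 141 had the other sign than the reported value, 0 of them called in either fit, 97 of them with 1 library left out and 20 with library totals without TMM. The reported size of those values was at most 0.32 (log2). With at least 10 counts in every sample, 1 of the genes was called between 67NR and control lungs, 1 between 4T07 and control scaffolds, 0 between 4T1 and 4T07 scaffolds and 1 between 4T07 and 67NR scaffolds. Fitting only the compared groups gave 0 between 4T1 and 4T07 scaffolds. With library totals without TMM, a choice made after seeing the data, 1 was called between 67NR and control lungs, and 5 were called between 4T07 and control and 5 between 4T07 and 67NR spleens. Leaving out 1 library gave 0 to 1 calls for 67NR against control lungs (1 without control lung replicate 3), 1 to 3 for 4T07 against control scaffolds, 0 to 1 for 4T1 against 4T07 scaffolds, 0 to 1 for 4T1 against 4T07 spleens, 2 to 5 for 4T1 against control spleens (2 without 4T1 spleen replicate 3) and 1 to 2 for 4T1 against 67NR tumors. Of single values, 294 stayed on their side of the threshold with DESeq2 and 2 lost the call, 208 stayed and 2 gained it without a count filter, and all 210 stayed when libraries were thinned to the lowest total of their tissue, also chosen after seeing the data. Leaving out 1 library kept 3200 values on their side, gained 23 calls and lost 47. With a pseudocount of 0.1 in place of 0.5, 112 of the ratios to a list moved by less than the spread of replicates and 38 by more. Low counts limit Car4 in spleens and scaffolds most. No paired analysis was possible because the labels number every library in a single run, so that no groups share a replicate number.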

Other observations

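In 4T07 against 67NR tumors 17.1% of all genes were called higher and 11.8% lower, and in 4T1 against 67NR tumors 11.6% and 9.07%. Of 13 genes of arteries and venules, 6 were called higher and 0 lower in 4T07 than in 67NR tumors, among them the arterial ephrin Efnb2 (log2 fold change 3.55) and the leukocyte adhesion molecules Sele (2.89) and Vcam1 (2.79). The same count, 6 higher and 0 lower, was found in 4T1 against 67NR tumors. Of 12 genes of sprouting vessels, 4 were called higher and 2 lower in 4T07 against 67NR tumors, led by Esm1 (4.56), and 3 higher and 0 lower in 4T1 against 67NR tumors, among them the guidance receptor Unc5b (1.72). Genes of mural cells, which wrap the vessels, were called higher for 2 of 9 in 4T07 and 3 of 9 in 4T1 tumors. These comparisons share the 67NR tumors.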
